A study of Mus musculus with 4 samples.

Results

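The 37 genes described here encode the enzymes and transporters of glycolysis together with factors and targets of the hypoxia response. They were taken by symbol from the gene table, where each symbol stood on 1 row, so they make up 37 of 28692 genes. Single-cell RNA was counted in 4 pools of hematopoietic stem and progenitor cells (HSPCs) from the bone marrow of male C57BL/6-CD45.2 mice without any transgene or drug named in the labels. The cells were sorted as Lin- Sca1+ cKit+ Flt3-, a gate that keeps immature cells and removes most committed ones. The young pools came from 2 (A) and 3 (B) mice of 2 to 3 months, and the aged ones from 3 (A) and 2 (B) mice of 17 to 18 months. Both A pools were run on the HalioDX platform and both B pools on TGML, so the letter marks a batch shared by the ages. Values listed in fours below stand in the order young A, young B, aged A, aged B. Each pool is 1 library of several mice, and single mice cannot be told apart.

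Glycolysis splits glucose into pyruvate. Lactate dehydrogenase then turns pyruvate into lactate, or the pyruvate dehydrogenase complex passes it to the mitochondria unless a kinase of the PDK family blocks that step. When oxygen is low, the factors HIF1A and EPAS1 (also called HIF2A) escape the prolyl hydroxylases of the EGLN family and switch on many of these genes through a short DNA motif, ACGTG or GCGTG. Long-term hematopoietic stem cells (HSCs) reside in a poorly oxygenated marrow and are known for a strong use of glycolysis.

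After cells far from the mean log count of their pool were removed, 5189, 2244, 3328 and 4154 cells remained. They carried 36446168, 16399999, 20788935 and 33286187 unique molecular identifiers (UMIs), with a median of 5674 to 6719 a cell, and pairs of pools shared 8 to 26 cell barcodes. All 12 HSC markers were detected in each pool, with 793 to 1611 summed CPM (counts scaled to 1000000 UMIs in each pool), while a list of 10 T cell markers stayed at 12.3 to 22.6 CPM. Kit and Ly6a, which encode the sorted surface proteins cKit and Sca1, were present in cells of every marker class. Flt3, whose product the gate excluded, had 33.6, 9.61, 6.5 and 1.96 CPM in the HSC class defined below and 64.4, 22.6, 29.0 and 3.82 in the neutrophil class, highest in young pool A in both, and its part in the results was not tested. Aged pool A stood apart in its immediate-early genes, at 4305 summed CPM against 496 to 1266 in the other pools, and in plasma cell genes, at 1367 CPM against 134 to 386. Young pool B stood apart in erythrocyte genes, at 1122 CPM against 146 to 402. The part of these lists in the results below was not tested, except where values without a class or pool are given.

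Promoters are shown here for 4 genes that the class comparisons below return to: both lactate dehydrogenases, Aldoc and the lactate exporter gene Slc16a3. They were chosen after their values were seen. Where RefSeq gave a second start, as for Ldha and Aldoc, the window of the first is printed. The 300-base windows run from 250 bases before the RefSeq start to 50 bases after it (GRCm38.p6), 5′ to 3′ on the strand of the gene, and capitals mark ACGTG or GCGTG on either strand (CACGT or CACGC when read from the other strand). Ldha encodes the muscle-type subunit, and its window lies at chr7:46845554-46845853 on the plus strand. Ldhb encodes the heart-type subunit, at chr6:142507908-142508207 on the minus strand. Aldoc encodes the brain-type aldolase, at chr11:78322823-78323122 on the plus strand. Slc16a3 encodes the lactate exporter MCT4, at chr11:120948817-120949116 on the plus strand.
Ldha: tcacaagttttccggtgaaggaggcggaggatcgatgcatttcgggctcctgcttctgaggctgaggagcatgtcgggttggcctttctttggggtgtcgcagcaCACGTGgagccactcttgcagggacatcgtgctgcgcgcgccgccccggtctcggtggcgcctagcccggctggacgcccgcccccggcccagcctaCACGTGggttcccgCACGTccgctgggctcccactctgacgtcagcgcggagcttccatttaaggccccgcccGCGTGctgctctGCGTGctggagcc
Ldhb: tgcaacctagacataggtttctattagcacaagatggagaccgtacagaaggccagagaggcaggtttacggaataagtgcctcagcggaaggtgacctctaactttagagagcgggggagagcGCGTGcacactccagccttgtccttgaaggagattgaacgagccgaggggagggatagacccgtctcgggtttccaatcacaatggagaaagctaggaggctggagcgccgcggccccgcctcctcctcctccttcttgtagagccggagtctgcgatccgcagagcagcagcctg
Aldoc: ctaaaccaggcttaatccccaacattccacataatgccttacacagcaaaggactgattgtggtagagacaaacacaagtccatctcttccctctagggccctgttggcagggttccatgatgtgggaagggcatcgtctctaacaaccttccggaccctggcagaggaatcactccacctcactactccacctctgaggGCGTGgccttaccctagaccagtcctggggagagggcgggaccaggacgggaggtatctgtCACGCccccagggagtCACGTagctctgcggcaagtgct
Slc16a3: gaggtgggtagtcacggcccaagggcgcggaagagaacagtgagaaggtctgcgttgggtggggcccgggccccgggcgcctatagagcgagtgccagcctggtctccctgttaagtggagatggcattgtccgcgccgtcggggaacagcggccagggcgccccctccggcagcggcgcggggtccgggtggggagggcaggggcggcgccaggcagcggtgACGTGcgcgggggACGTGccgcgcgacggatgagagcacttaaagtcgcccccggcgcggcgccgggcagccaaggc

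The printed Ldha window held 5 ACGTG and 2 GCGTG matches, and the second Ldha window (chr7:46846832-46847131) 0 and 2. The 4 first ACGTG matches formed 2 palindromes, CACGTG, which is also the E-box bound by MYC and other factors. The Ldhb window held no ACGTG and 1 GCGTG, at 126 bases before the start. Slc16a3 had 2 ACGTG matches, at 27 and 14 bases before the start, and Aldoc had 1 ACGTG and 2 GCGTG, against 0 and 1 in its second window (chr11:78323948-78324247). A window was found for 32 of the 37 genes, and Slc2a3, Epas1, Bnip3l, Angptl4 and Ndrg1 had none. ACGTG occurred in 25 of the 47 windows of these genes (53.2%), against 19.6% of 32851 windows of all genes, and either motif in 80.9% against 43.8%. Since the genes were listed for their place in glycolysis and the hypoxia response, this difference is a description of the list, and a match is not a binding site.

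The 37 genes took 0.433%, 0.475%, 0.541% and 0.476% of the UMIs of the pools, a mean of 0.481 ± 0.0448% (SD, n = 4). Because the assay counts 3′ ends of transcripts, each captured molecule gives 1 UMI whatever the length of the gene, and CPM can be set side by side between genes apart from differences in capture. The enzymes from Gapdh to pyruvate kinase took 0.173% of UMIs on average, those from hexokinase to triose phosphate isomerase 0.154%, and the lactate genes 0.0948%. The HIF target genes outside glycolysis followed at 0.0370% and the PDH kinases at 0.0118%. The glucose transporters, the oxygen-sensing genes and the PFKFB regulators stood lower still, at 0.00512%, 0.00342% and 0.00151%. Thus the measured signal was carried by a few enzymes of the pathway.

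**Figure D1:**
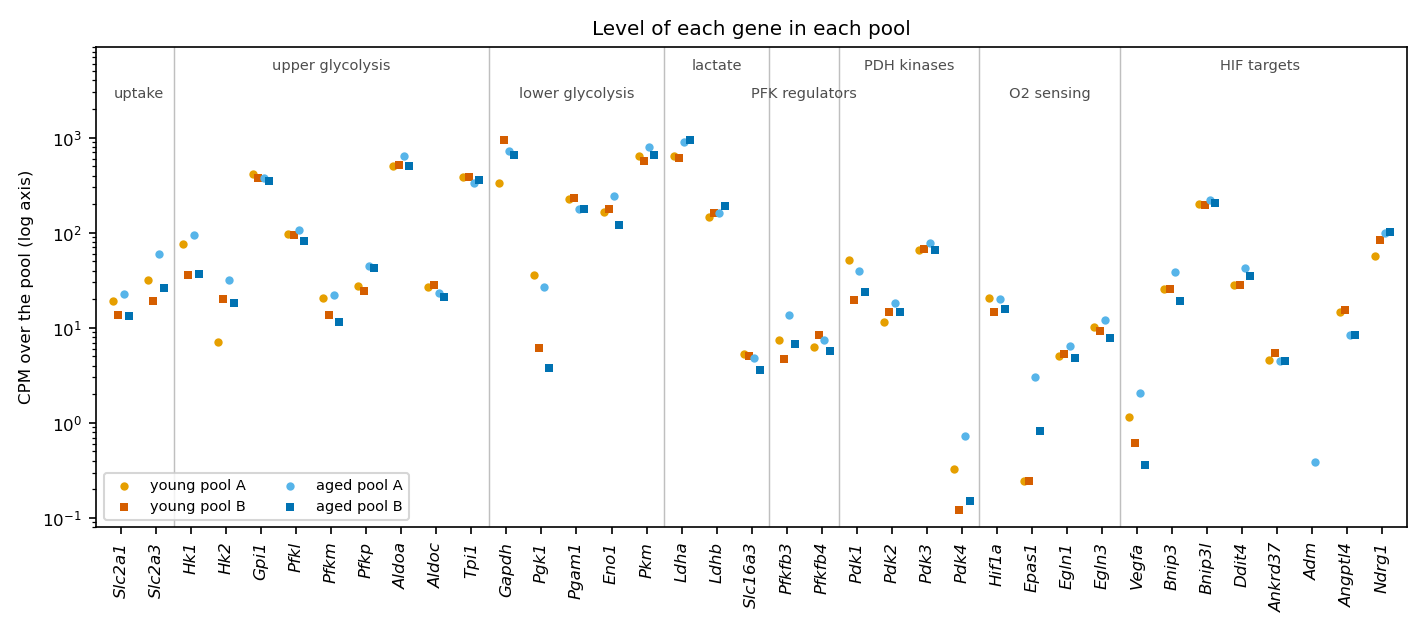
Level of each of the 37 genes in CPM (log axis), with 1 point for each of the 4 pools and values of 0 not drawn. Ldha, Pkm and Aldoa are among the 4 highest genes in all pools, while Epas1, Vegfa, Pdk4 and Adm lie at the bottom.

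Ldha, which makes lactate from pyruvate (chr7:46841475-46855627, plus strand), had 648, 613, 898 and 955 CPM, with both aged pools above both young ones. Pkm, the pyruvate kinase gene (chr9:59656368-59679375, plus strand), had 637, 572, 794 and 661 CPM. Aldoa, the main aldolase, had 505, 521, 649 and 508 CPM. Within each pool Ldha was above Pkm and Pkm above Aldoa, although the ranges over the 4 pools overlapped. Gapdh had 334, 956, 728 and 662 CPM and changed its rank from pool to pool, with young pool A far below the rest. Its last 300 bases match 69 other annotated genes, 67 of them pseudogenes, and Eno1 has a near copy in the files (Eno1b), so the values of Gapdh and Eno1 are uncertain. Ldha and Bnip3 had 2 near copies each, and Gpi1, Tpi1, Pkm and Ldhb 1 each. These were pseudogenes absent from the gene table of the pools, and their part in the values was not tested. Gpi1 (418, 381, 374 and 349 CPM) and Tpi1 (384, 383, 332 and 359 CPM), which interconvert sugar and triose phosphates, came next and overlapped each other. Bnip3l, a mitophagy receptor and HIF target, was the highest gene outside the pathway at 203, 195, 219 and 207 CPM. It overlapped Pgam1, at 229, 229.6, 179.9 and 176 CPM, and Eno1, the enolase gene, at 165, 178, 244 and 122. Ldhb had 147, 160.1, 161 and 189 CPM, within the range of Eno1. The remaining enzymes and kinases spanned a wide range, from Pfkl, the liver-type phosphofructokinase, at 82.7 to 106 CPM, and Pdk3 at 65.1 to 78.4, through Pdk1 (19.6 to 52.0 CPM), Pfkm (11.6 to 22.1) and Pdk2 (11.4 to 18.1), down to Pdk4 at 0.12 to 0.72.

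The regulators of the hypoxia response were sparse. Hif1a had 20.6, 14.7, 20.3 and 15.6 CPM. Epas1 had 0.25, 0.24, 3.03 and 0.81 CPM, and thus 87.0% to 98.8% of the UMIs of the pair belonged to Hif1a. The hydroxylase genes Egln1 and Egln3 stayed between 4.87 and 12.2 CPM. Among the HIF targets Ddit4 had 28.4 to 42.4 CPM, Bnip3, another mitophagy receptor, 19.2 to 39.1, and Ankrd37 4.45 to 5.37. Vegfa, the vascular growth factor, did not exceed 2.07 CPM, and Adm, which encodes adrenomedullin, was seen in aged pool A alone with 8 UMIs, where 3 UMIs in the other pools would stand for 0.0823 to 0.183 CPM. After each cell was thinned to 3000 UMIs, Ldha was seen in 79.2% and 77.4% of young cells and 90.1% and 91.8% of aged cells, and Hif1a in 4.7% to 6.1%. Of the 37 genes, 7 were seen in over 50% of the cells of some pool and 18 in under 10% in every pool. At this depth an absent UMI does not mark a cell without the transcript.

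Aldolase and lactate dehydrogenase UMIs came mostly from 1 isoenzyme, while several other families were more mixed. All shares were taken among the listed genes of a family. Pdk3 took 50.5% to 66.4% of PDK UMIs, and Pfkfb3 35.8% to 65.1% of PFKFB UMIs. Slc2a3 took 58.5% to 72.3% of the UMIs of Slc2a1 and Slc2a3. Aldoa gave nearly all aldolase UMIs, since Aldoc took 5.1%, 5.2%, 3.4% and 4.0%. Ldhb took 18.5%, 20.7%, 15.2% and 16.5% of lactate dehydrogenase UMIs. Hk2, the inducible hexokinase, took 8.5%, 35.8%, 25.2% and 33.1% of the UMIs of Hk1 and Hk2, with young pool A apart from the others. Hk3, which is not in the list and was left out, had 16.8, 7.93, 20.6 and 4.87 CPM. Pfkp, the platelet-type phosphofructokinase, took 18.7%, 18.5%, 26.0% and 30.9%, so that both aged pools lay above both young ones. An exact permutation test of 2 pools against 2 cannot give a two-sided p below 0.33, and these shares were not tested.

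A few of the genes differed between the platforms. Pgk1, the phosphoglycerate kinase gene, had 36.1 and 27.1 CPM in the HalioDX pools and 6.10 and 3.82 in the TGML pools of young and aged mice. Its difference, TGML minus HalioDX, was -2.44 on the log2 scale (edgeR adjusted p = 0.00938). Hk1 had 76.0 and 94.0 CPM against 35.9 and 36.8, a log2 difference of -0.96 (edgeR adjusted p = 0.0329). They were 2 of 35 tested genes, with 7.6% of 13555 genes called. The platform, given in the labels, was a block in the comparison of ages.

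Cells were next separated by lineage with lists of 12 marker genes each, none of which belongs to the 37. A cell was put in a class when it had at least 4 markers of 1 list and more than of any other after thinning, and 593, 349, 691 and 1357 cells met this for the HSC markers. The erythroid class held 47 to 168 cells a pool, the megakaryocyte class 19 to 81, the neutrophil class 69 to 495 and the mast cell and basophil class 11 to 63. The counts of each class were summed in each pool and compared with the HSC class in 1 edgeR fit with the pool as a block. Of 31 tested genes, 20 differed in the erythroid class (5 higher, 15 lower), with 54.2% of 9485 genes called (26.3% higher, 27.9% lower). In the megakaryocyte class 17 differed (8 higher and 9 lower, against 34.9% of all genes, 17.8% and 17.1%), in the neutrophil class 16 (9 and 7, or 7 and 9 by DESeq2, against 49.8%, 25% and 24.8%) and in the mast cell class 13 (7 and 6, or 7 and 8 with library totals, against 30.5%, 15.1% and 15.4%). In the fit of all 4 pools the share of the list called was above that of all genes in the erythroid, megakaryocyte and mast cell classes. It was near that share in the neutrophil class. The list was not matched to all genes by level. In cells of no class 6 differed (17.9% of genes). In the interferon and immediate-early classes edgeR and DESeq2 called 0 (1.42% and 1.39% of genes by edgeR). At an unadjusted p below 0.05 in edgeR there were 2 and 3 of the list, beside 843 and 977 of 9485 genes. Without young pool A the megakaryocyte count was 10 of 29, with 2252 of 8284 genes called. Without young pool B it was 10 of 31, with 2821 of 9425 genes called, near the share of the list. The count in cells of no class was then 0 and 1, with 815 and 1045 of these genes called. No class was corrected for RNA free in the droplets, which adds some UMIs of each gene to all cells.

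Ldhb, which favours the use of lactate (chr6:142490249-142507957, minus strand), was lower than in the HSC class in all 4 lineage classes. In the HSC class it had 210.5, 210.4, 166.5 and 211.9 CPM. In the erythroid class it had 24.2, 48.4, 15.3 and 20.0 CPM, and in the mast cell class 29.7, 39.1, 24.5 and 16.4. No pool of either class overlapped the HSC class. The log2 differences were -2.82 (SE 0.18, edgeR adjusted p = 2.16e-16) and -2.56 (SE 0.26, edgeR adjusted p = 1.67e-10). The megakaryocyte class (46.1 to 95.2 CPM) and the neutrophil class (49.7 to 85.4 CPM) lay between, with -1.56 (SE 0.16) and -1.34 (SE 0.13). Ldha went the other way: it had 549, 470, 847 and 911 CPM in the HSC class and 1246, 1437, 1055 and 1178 in the megakaryocyte class, a log2 difference of 0.86 (SE 0.14, edgeR adjusted p = 2.92e-06). It was higher in the erythroid and mast cell classes as well, by 0.66 in each, and did not pass the test in the neutrophil class (0.22, edgeR adjusted p = 0.17).

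Ldhb made up 27.7%, 30.9%, 16.4% and 18.9% of lactate dehydrogenase UMIs in the HSC class. It made up 1.45% to 5.27% in the erythroid class, 1.12% to 4.11% in the mast cell class, 3.53% to 7.48% in the megakaryocyte class and 5.13% to 11.2% in the neutrophil class. The HSC class of every pool thus lay above every lineage class of every pool. Within the HSC class the young pools lay above the aged ones on both platforms, and this share was not tested.

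**Figure D2:**
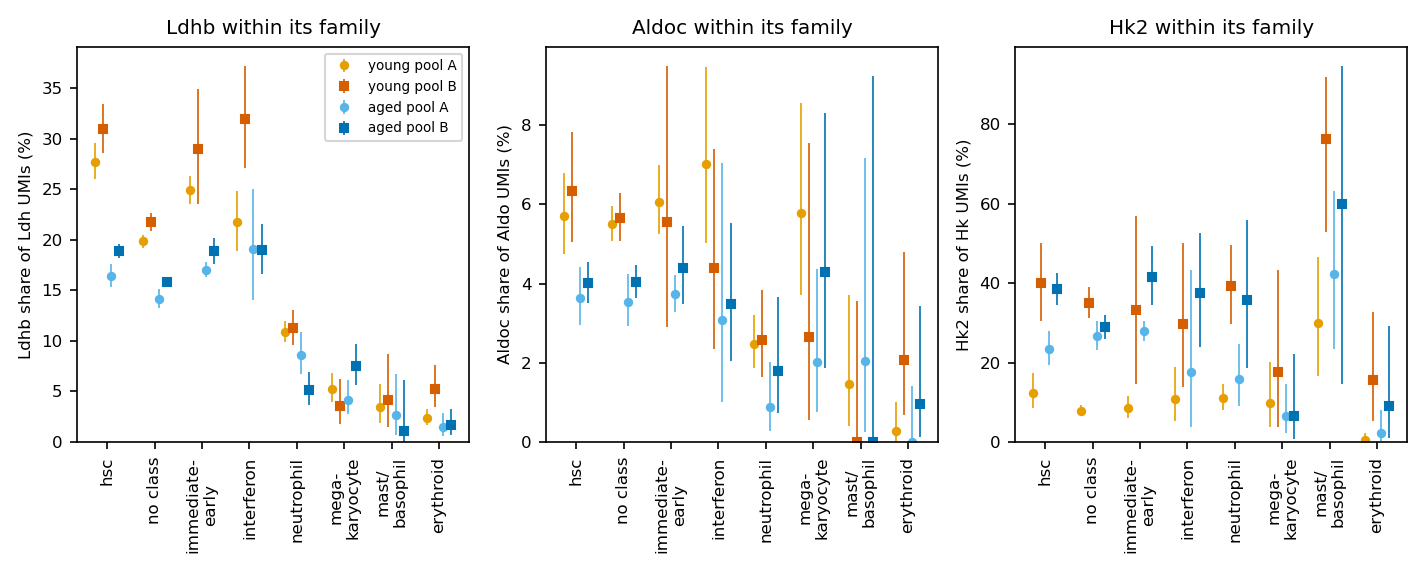
Percent of UMIs of the listed genes of their enzyme family taken by Ldhb, Aldoc and Hk2 in each marker class. Hk2 is set against Hk1 alone. Each pool has 1 point with its exact 95% interval, which covers counting error only. The Ldhb share falls from 16.4% to 30.9% in the HSC class to at most 11.2% in the lineage classes.

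Aldoc (chr11:78322968-78327781, plus strand) followed Ldhb. It had 35.4, 37.9, 25.5 and 23.4 CPM in the HSC class and 1.3, 9.0, 0 and 5.0 in the erythroid class, where aged pool A had no UMI and 3 UMIs would be 5.73 CPM. The log2 difference was -3.34 (SE 0.34, edgeR adjusted p = 8.25e-11), and in the neutrophil class it was -1.49 (SE 0.18, edgeR adjusted p = 3.24e-09). Pdk2, a kinase that blocks pyruvate dehydrogenase, was the only other gene of the 31 called lower in all 4 lineage classes. Slc2a1, Slc2a3, Ddit4, Pdk1, Pfkfb3 and Pfkl also had negative log2 differences in all 4, but were called in fewer. Pdk2 had 15.6 to 21.1 CPM in the HSC class, 5.0 to 9.0 in the erythroid and 6.4 to 9.0 in the neutrophil class. In the mast cell class Pdk2 had 4 UMIs in all (log2 difference -1.63, SE 0.56, edgeR adjusted p = 0.0245). The Pdk2 call was lost in the megakaryocyte class without young pool A (-0.73, edgeR adjusted p = 0.138) and in the mast cell class without young pool A (-1.65, edgeR adjusted p = 0.157), without aged pool B (-1.54, edgeR adjusted p = 0.0543) and by DESeq2. That of Aldoc in the megakaryocyte class (-0.62, edgeR adjusted p = 0.0377) was lost when any pool but young A was left out (log2 differences of -0.57 without young B, -0.50 without aged A and -0.65 without aged B). Slc2a1, the glucose transporter GLUT1, had 12.7 to 21.2 CPM in the HSC class and 0 to 3.8 in the erythroid class (aged pool B had no UMI, where 3 would be 7.52 CPM), a log2 difference of -2.70 (SE 0.43, edgeR adjusted p = 1.27e-06). Pkm fell in erythroid cells as well, from 526 to 793 CPM to 145 to 193 CPM, a log2 difference of -1.90 (SE 0.11, edgeR adjusted p = 6.54e-17).

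Each lineage class also had genes that rose. In the erythroid class Angptl4, a secreted inhibitor of lipoprotein lipase and HIF target (chr17:33773750-33781830, minus strand), had 32.0, 25.1, 24.8 and 37.6 CPM against 6.4, 9.6, 4.4 and 6.5 in the HSC class. Its log2 difference was 2.13 (SE 0.25, edgeR adjusted p = 3.59e-09). It was higher by 1.45 (SE 0.22, edgeR adjusted p = 7.14e-07) in the neutrophil class, at 17.0 to 21.1 CPM, and by 1.02 (SE 0.36, edgeR adjusted p = 0.0251) in the megakaryocyte class, where 7.5 to 38.2 CPM overlapped the HSC class and the call was lost in some alternatives. Hk2 was lower in erythroid cells, with 0.7, 9.0, 3.8 and 5.0 CPM against 8.5, 20.2, 24.2 and 22.4 (-2.17, SE 0.45, edgeR adjusted p = 9.93e-05). It was also lower in megakaryocyte cells (-1.22, SE 0.41, edgeR adjusted p = 0.0184), where the call was lost without aged pool A (-1.07) or aged pool B (-0.80). Hk1, in contrast, was higher in erythroid cells by 1.11 (SE 0.13, edgeR adjusted p = 1.24e-09). In the neutrophil class Pgam1, the phosphoglycerate mutase gene, had 403, 361, 382 and 498 CPM against 154 to 180.2 in the HSC class. Its log2 difference there was 1.37 (SE 0.11, edgeR adjusted p = 7.81e-13). Egln3 rose there by 1.54 (SE 0.20), from 7.5 to 8.2 CPM to 19.8 to 33.3 CPM, and Slc2a3, the glucose transporter GLUT3, fell by 1.28 (SE 0.15, edgeR adjusted p = 2.93e-09), from 21.6 to 51.8 CPM to 5.1 to 23.6 CPM.

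The mast cell class differed from the HSC class in transcripts of several isoenzymes, a transporter and kinases. Pfkp (chr13:6579768-6648777, minus strand) had 87.0, 149.9, 61.1 and 114.6 CPM against 28.5, 25.5, 47.1 and 41.6 in the HSC class, a log2 difference of 1.72 (SE 0.27, edgeR adjusted p = 2.26e-06). Its share of phosphofructokinase UMIs was 54.7%, 65.7%, 50% and 77.8% (10 of 20 UMIs in aged pool A), against 19.2% to 31.5% in the HSC class. Hk2 had 25.5, 104.3, 67.2 and 49.1 CPM against 8.5, 20.2, 24.2 and 22.4, a log2 difference of 1.82 (SE 0.35, edgeR adjusted p = 7.53e-05). Slc16a3 had 23.3, 26.1, 6.1 and 32.8 CPM (11, 4, 1 and 2 UMIs) against 2.4 to 4.9, a log2 difference of 2.50 (SE 0.56, edgeR adjusted p = 0.00053). Pdk1 was lower, with 8.5, 0, 12.2 and 0 CPM against 17.8 to 53.6, where 3 UMIs would be 19.6 and 49.1 CPM in the pools without one (log2 difference -2.43, SE 0.43, edgeR adjusted p = 1.78e-05). Pfkm, the muscle-type phosphofructokinase, was lower by 1.83 (SE 0.60, edgeR adjusted p = 0.0184), with UMIs in 2 of 4 pools, and Aldoc by 2.02 (SE 0.47, edgeR adjusted p = 0.000909). The class held 11 cells in aged pool B, and all of these values rest on few UMIs. Without young pool A the Slc16a3 difference no longer passed the test (edgeR adjusted p = 0.0776).

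**Figure D3:**
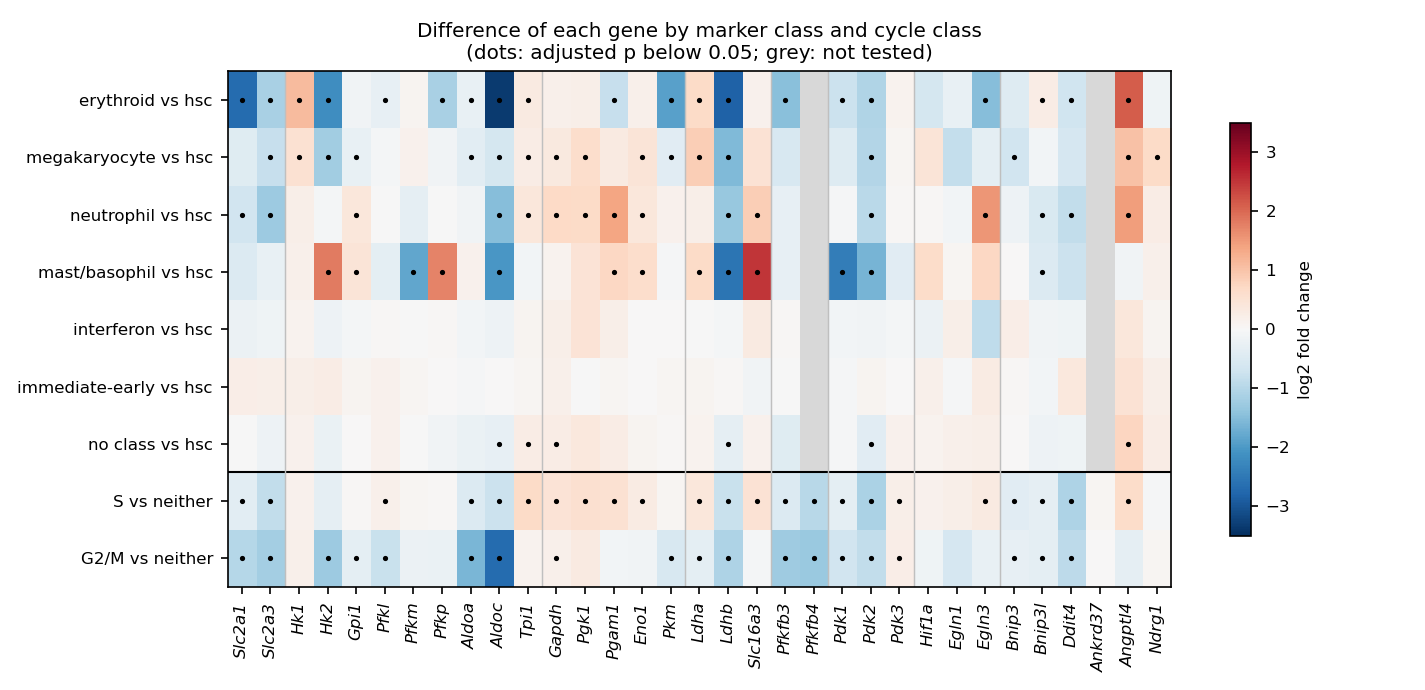
Log2 difference of each tested gene between a marker class and the HSC class, and between cells with S or G2/M markers and cells with neither. Dots mark an edgeR adjusted p below 0.05, and grey marks genes that were not tested. Ldhb, Aldoc and Pdk2 are called lower in all 4 lineage classes in this fit. The megakaryocyte calls of Aldoc and Pdk2 and the mast cell call of Pdk2 were lost in some alternatives.

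The lineage classes held more cycling cells than the HSC class. Cells with S or G2/M markers made up 2.36% to 6.91% of the HSC class, against 27.3% to 58.8% of the lineage classes. The comparison was therefore repeated among cells with neither list, an alternative chosen after seeing the data. Then 16 of 29 tested genes differed in the erythroid class (39.1% of 8982 genes), 14 in the neutrophil class (36.6%) and 5 in the megakaryocyte class (13%). Ldhb was lower in all 3, with log2 differences of -2.55, -1.12 and -1.17 in the erythroid, neutrophil and megakaryocyte classes. Aldoc was lower in the erythroid and neutrophil classes (-3.95 and -1.39), while its megakaryocyte value of -0.30 did not pass the test. Pdk2 was lower in the erythroid (-0.90, edgeR adjusted p = 0.0459) and neutrophil classes (-0.76, edgeR adjusted p = 0.0104). Its megakaryocyte value of -0.65 did not pass (edgeR adjusted p = 0.326). The mast cell class was too small to be included.

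To describe the cell cycle itself, cells with at least 4 S or G2/M markers were set against cells with neither. There were 1874 S cells, 844 G2/M cells and 11967 cells with neither in the 4 pools. In G2/M cells 19 of 33 tested genes differed (2 higher, 17 lower), with 45.5% of 11644 genes called (21.6% higher, 23.9% lower). The higher ones were Gapdh, by 0.17 (SE 0.05), and Pdk3, by 0.23 (SE 0.09), but 0 genes were higher with 1 marker more or without aged pool B, and 1 without young pool B. In S cells 23 differed (11 higher, 12 lower), with 51.4% of genes called (23.7% higher, 27.7% lower). Without the lineage classes, 19 and 21 genes differed, with 44.1% and 47.3% of genes called.

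Both aldolase genes were lower in G2/M cells. Aldoa (chr7:126795234-126800751, minus strand) had 580.3, 589, 696 and 557 CPM in cells with neither list. In G2/M cells it had 196, 183, 276 and 174 CPM, without overlap (log2 difference -1.60, SE 0.07, edgeR adjusted p = 5.22e-13). Aldoc went from 23.5 to 33.4 CPM down to 3.2 to 6.5 CPM, a log2 difference of -2.69 (SE 0.18, edgeR adjusted p = 2.78e-10). Both PFKFB enzymes, which make the activator of phosphofructokinase, were lower, Pfkfb4 with -1.29 (SE 0.26, edgeR adjusted p = 0.000501) and Pfkfb3 with -1.24 (SE 0.25, edgeR adjusted p = 0.000378). Hk2 was lower too, at 4.8 to 11.5 CPM against 7.5 to 33.9 (-1.28, SE 0.22, edgeR adjusted p = 0.000106). Ldhb was also lower, by 1.08 in G2/M and by 0.77 in S cells.

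In S cells Tpi1, Pgk1, Pgam1, Gapdh and Ldha were higher, while Aldoa was lower (-0.48, SE 0.07, edgeR adjusted p = 8.68e-06). Angptl4 (0.66, SE 0.14, edgeR adjusted p = 0.000677), Eno1 (0.28, SE 0.06, edgeR adjusted p = 0.0012), Pfkl, Slc16a3, Pdk3 and Egln3 were called higher as well. Gpi1 (0.04) and Pkm (0.08) did not pass the test. Tpi1 had 517, 555, 458 and 568 CPM in S cells against 341, 333, 314 and 327 in cells with neither list, a log2 difference of 0.67 (SE 0.05, edgeR adjusted p = 4.28e-09). Pgk1 rose by 0.55 (SE 0.11), Pgam1 by 0.54 (SE 0.06) and Ldha by 0.41 (SE 0.07), all with an adjusted p below the threshold in edgeR. Ddit4, an inhibitor of mTORC1 induced by hypoxia, had 15.4, 16.5, 20.6 and 19.7 CPM in S cells against 34.8, 33.9, 46.8 and 38.0, a log2 difference of -1.08 (SE 0.09, edgeR adjusted p = 8.81e-09). Pdk2 was lower by 1.12, at 6.0 to 8.0 CPM against 13.4 to 20.4 (SE 0.15, edgeR adjusted p = 5.61e-06). The 2 cycle classes thus did not move the pathway in the same way: Ldha was higher in S and lower in G2/M cells (-0.33, SE 0.07, edgeR adjusted p = 0.000665). Cycling cells carried more UMIs (medians of 8440 to 12554 against 5632 to 6380), and the part of depth was not tested.

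**Figure D4:**
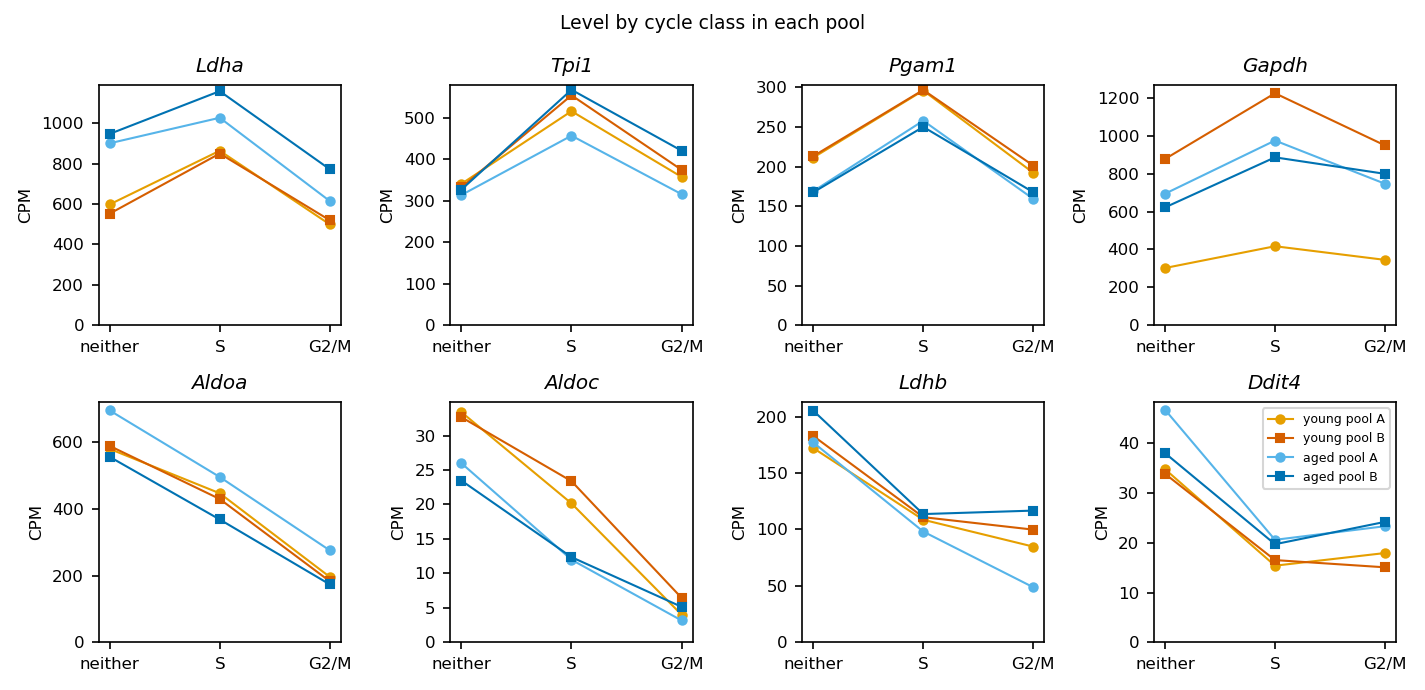
CPM of Ldha, Tpi1, Pgam1, Gapdh, Aldoa, Aldoc, Ldhb and Ddit4 in cells with neither list, with S markers and with G2/M markers, 1 line for each pool. Tpi1 rises in S cells in all 4 pools and Aldoa falls in G2/M cells in all 4 pools.

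The comparison of aged with young pools, with the platform as a block, called 275 of 13555 genes (2.03%) and none of the 35 tested members of the list. By edgeR, 7 of the 35 had an unadjusted p below 0.05, beside 2175 of the 13555 genes. DESeq2 called 0 of the list, with 5 at that level beside 1406 of 19025 genes. Of the 35, 20 had a higher level in aged pools, with a median log2 difference of 0.06 against 0.01 over all genes tested. Both aged pools lay above both young pools in 8 of the 35 (18.1% of all genes) and below in 7 (13.6%). The age difference had the same sign on both platforms in 19 of the 35 and in 8185 of the 13555 genes. In simulated counts of the same size the test recovered 25 of 100 genes with a 2-fold change and 82 of 100 with a 4-fold change, so a change of 2-fold could have been missed. Over all genes the count was 287 when young pool A was left out, 160 without young pool B, and 4 and 0 without the aged A and B pools. The count for the list was 0 in each.

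The values closest to a call were those of Angptl4 and Pfkp. Angptl4 had 14.6, 15.5, 8.32 and 8.44 CPM, without overlap (log2 difference -0.89, SE 0.18, edgeR adjusted p = 0.094). Pfkp had 27.3, 24.3, 44.8 and 42.2 CPM, also without overlap (0.70, SE 0.16, edgeR adjusted p = 0.125). Epas1 (chr17:86753700-86833410, plus strand) had a log2 difference of 2.79 (SE 0.65, edgeR adjusted p = 0.126) at the low levels given above. With no filter on low counts Angptl4 (-0.90, edgeR adjusted p = 0.0361) and Epas1 (2.77, edgeR adjusted p = 0.0437) passed, with 4.07% of genes called. Slc2a3 had 31.5, 19.3, 59.1 and 26.0 CPM (0.62, SE 0.17, edgeR adjusted p = 0.177), and Pfkfb3 had 7.52, 4.70, 13.7 and 6.70 (0.64, SE 0.19, edgeR adjusted p = 0.192), each higher in aged pools on both platforms but with overlap. On the lower side Pgam1 differed by -0.42 (SE 0.18), Pgk1 by -0.59 (SE 0.18), Aldoc, with 26.9, 28.5, 23.0 and 20.9 CPM, by -0.39 (SE 0.16) and Slc16a3, with 3.58 to 5.24 CPM, by -0.35 (SE 0.23), and none passed. Ldha, at 613 to 955 CPM, had a log2 difference of 0.50 (SE 0.23, edgeR adjusted p = 0.391).

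Some genes moved in opposite directions on the 2 platforms. Hk2 had 7.08 and 31.7 CPM in the young and aged HalioDX pools and 20.0 and 18.2 in the TGML pools, a difference on the log2(CPM + 1) scale of 2.01 and -0.13. Gapdh differed by 1.12 and -0.53, Eno1 by 0.56 and -0.54, and Bnip3 by 0.60 and -0.40. Per the methods, aged pool A and young pool B were sequenced to more reads per cell than young pool A and aged pool B. Any gene higher with age on HalioDX and lower on TGML is by definition higher in the more deeply read pool of each platform. Slc2a1, Pfkl, Pfkm, Aldoa, Pfkfb4, Pdk2, Pdk3, Egln1, Egln3 and Vegfa were also higher with age on HalioDX and lower on TGML. Among the tested genes only Pdk1 (-0.38 on HalioDX and 0.27 on TGML) and Hif1a (-0.02 and 0.08) moved the other way. The part of read depth was not tested, and no age difference can be read from these genes.

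**Figure D5:**
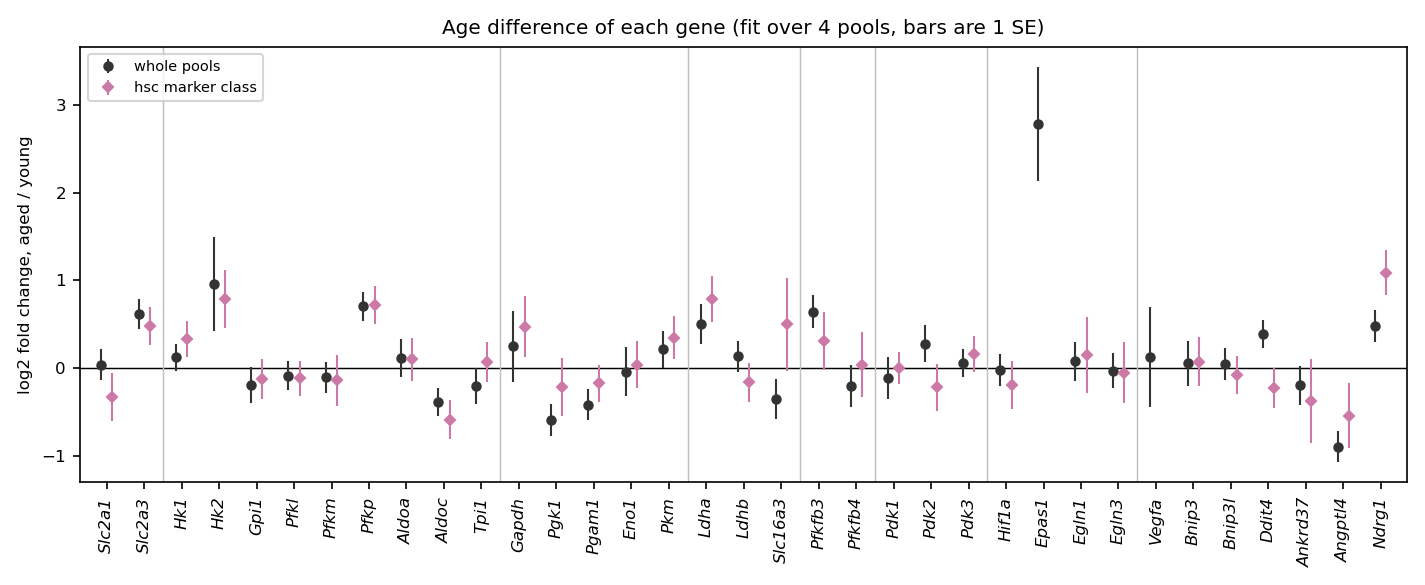
Log2 difference, aged minus young, of each tested gene in whole pools and in the HSC class, with bars of 1 SE from edgeR. None of the 35 genes passed the adjusted threshold in whole pools, and Epas1 has the largest value, at 2.79.

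In bulk sums over a pool, fewer cells of a type and less RNA per cell cannot be told apart. The HSC class made up 11.4% and 15.9% of young and 21.9% and 32.7% of aged cells. Classes competed for cells, and the immediate-early class held 15.9%, 2.51%, 41.2% and 8.94%. At least 3 HSC markers were seen in 34.1%, 36.6%, 68.8% and 64.3% of cells. The part of this competition in the make-up of the HSC class was not tested. Since class shares differed, the ages were compared within the HSC class. There edgeR called 230 of 10870 genes (2.12%) and 0 of 33 members of the list. DESeq2 also called 0 of the list. In edgeR 6 members had an unadjusted p below 0.05, beside 1113 of the 10870 genes. The nearest was Ndrg1, a stress-response gene induced by hypoxia (chr15:66929318-66969640, minus strand), with 30.6 and 67.3 CPM in the young and 96.2 and 98.6 in the aged HSC class. Its log2 difference was 1.09 (SE 0.25, edgeR adjusted p = 0.0520). Among cells of no class edgeR called 340 of 12644 genes (2.69%) and 0 of 35, and DESeq2 called 0 of the list. In edgeR 7 of the 35 had an unadjusted p below 0.05, beside 1590 of the 12644 genes.

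Whether age acted differently in the HSC class and in all other cells was tested as an interaction, which called 109 of 13038 genes (0.836%, with 0.368% larger in the HSC class) and 1 of the list. The other cells included the immediate-early class, whose share differed between pools. Ndrg1 had 60.3, 87.2, 101.2 and 101.9 CPM in other cells. The age difference was larger in the HSC class by 0.71 (SE 0.14, edgeR adjusted p = 0.0203). Without young pool A, whose HSC class had the lowest level, it was 0.32 and did not pass (edgeR adjusted p = 0.588). With library totals in place of TMM it was 0.60 (edgeR adjusted p = 0.0903). Ldha had 549 and 470 CPM in the young and 847 and 911 in the aged HSC class, against 658 and 635 and 917 and 975 in other cells. Its interaction of 0.34 stood just outside the threshold (edgeR adjusted p = 0.0506).

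Lists of other genes of these pathways were counted in the same age comparison. Of 84 genes in 6 lists, 82 were in the files and 68 were tested. They held 12 tested isoenzymes of glycolysis and related enzymes, and 8 genes listed with glucose and lactate transport. Those 8 include Pfkfb1, Pfkfb2 and Tigar, which encode enzymes and not transporters. The other lists held 12 genes of pyruvate entry, 7 of the pentose phosphate pathway, 11 of the HIF machinery and 18 HIF targets. The test called 1 of the 68 (2.03% of all genes), Ldhd, which encodes the mitochondrial D-lactate dehydrogenase. It had 4.42, 5.18, 21.9 and 18.9 CPM, without overlap (log2 difference 2.04, SE 0.20, edgeR adjusted p = 0.0217). Of the 68 genes 28 were higher with age, against 6981 of 13555 genes, with a median log2 difference of -0.07 against 0.01. Bhlhe40, a HIF target that encodes a repressor, had 3.62, 1.28, 34.6 and 3.58 CPM, with aged pool A far above the others and a log2 difference of 2.50 (edgeR adjusted p = 0.0666). Aged pool A was also the pool with the highest immediate-early level, and a link between these values was not tested.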

How the data were processed

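Single-cell RNA-seq of 4 pools was analysed from the raw UMI counts per gene and cell that the authors deposited. Per the labels and methods they were made from 10x Genomics 3′ libraries with Cell Ranger 2.2.0 on GRCm38. For age, titles and source names were followed, since 2 descriptions (young B and aged A) give the opposite age. Cells whose log UMI count lay within 2 SD of the pool mean were kept, and no doublet caller was run. For marker classes each cell was thinned to 3000 UMIs, and shallower cells (0, 50, 176 and 4, in the order young A, young B, aged A, aged B) were left out. The minimum of 4 markers was set after the marker counts were seen. Lymphoid cells, with 1 to 15 cells a pool, were not tested.

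Counts were summed for each pool, or each pool and class, and tested with edgeR 4.0.16 (quasi-likelihood, TMM, filterByExpr) over all genes with Benjamini-Hochberg adjustment to 0.05. DESeq2 1.42.0 was an alternative, run in R 4.3.3. The platform letter was a block in age fits of all 4 pools, save the alternative with no replicate block. It was not a block in age fits that left out a pool. The labels give the letter as a shared platform, and the deviations of same-letter pools from their age means correlated at r = 0.488 over 13555 genes. The pool was a block in class and cycle fits. The pools are separate groups of mice. In age fits the p-values rest on the spread between pools that is left after the block. In class, cycle and interaction fits they rest on how the difference between classes varies over the pools, not on the spread between pools. Binomial intervals are exact and, like the limit of 3 UMIs behind a count of 0, cover counting error only. Motifs were searched in RefSeq promoters, and near copies of 3′ ends (300 bases, at least 98% identity over 90 bases) with BLAST+ 2.17.0.

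The members, gene lists and tests were chosen with earlier results of these data known. Named genes were the 10 with the highest mean level, up to 5 each way among class and cycle calls of at least 1 on the log2 scale, and for age the 5 with the largest difference each way. In simulated counts edgeR found 92 of 100 genes changed 2-fold in the neutrophil contrast (17 false calls among 9485 genes), 89 of 100 in the S contrast (9 among 11644) and 70 of 100 in the interaction (13 among 13038).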

Additional observations from a re-analysis of the deposited data

Results flagged for a closer look

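The age difference of Ndrg1 was larger in the HSC class than in all other cells by 0.71 on the log2 scale (SE 0.14), in a test of the difference itself over the 4 pools (edgeR adjusted p = 0.0203). The ratio of the HSC class to other cells rose from young to aged on both platforms, from 30.6 against 60.3 CPM to 96.2 against 101.2 on HalioDX and from 67.3 against 87.2 to 98.6 against 101.9 on TGML. Over the alternatives its value lay between 0.32 and 1.0, and it missed the threshold without young pool A and with library totals. Why the 2 sets of cells differ was not tested.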

How the results depend on the processing

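The count of genes called with age, 275, was 0 with no replicate block, 528 with DESeq2, 74 with library totals only, 774 with no low-count filter and 154 with cells thinned to 3000 UMIs, and 0 to 287 when a pool was left out. The 217 higher and 58 lower calls became 70 and 4 with library totals and 362 and 166 with DESeq2. The 1431 higher and 1463 lower calls of the mast cell class became 1125 and 2162 with library totals, where the median log2 difference of all genes moved from -0.13 to -0.31, and with DESeq2 the 2368 and 2354 of the neutrophil class became 1938 and 3295. The members called with age stayed at 0 in these settings, with no replicate block as well, and were 2 with no low-count filter. The members called in cells of no class were 3 with 1 marker more, 1 among cells with neither S nor G2/M markers, and 0 to 5 without a pool. Megakaryocyte calls were 5 among those cells and 10 to 15 without a pool. For the difference of the age effect between classes, a set of alternatives chosen after seeing the data gave 2 members with DESeq2, 2 with 1 marker more, 2 without the immediate-early class, 0 with library totals and 0 to 4 without a pool. Where 3 pools were left, the lone pool was assumed to vary like the others.

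The age difference of Eno1 reversed to 0.011 with library totals and 0.026 with thinned cells, and that of Ldhb to -0.0016 with thinned cells. Age fits without 1 pool had no platform block, and the part of the platform in them was not tested. They gave log2 age differences from -0.63 to 1.09 for Gapdh, -0.038 to 0.22 for Aldoa, -0.43 to 0.015 for Tpi1, -0.088 to 0.17 for Bnip3l, -0.39 to 0.28 for Eno1, -0.16 to 0.41 for Ldhb and -2.30 to 1.02 for Pgk1. None of these was called with age in any setting. The calls of Hk2, Pdk2 and Angptl4 in the megakaryocyte class and of Pfkm, Pdk2 and Slc16a3 in the mast cell class were lost in at least 1 setting. Without thinning, the mean share of cells with a UMI was 94.8% for Ldha, 94.8% for Pkm, 93.1% for Aldoa and 87.3% for Gpi1. Of the alternative values for single genes, 528 kept their direction and side of the threshold. Another 15 reversed, 19 lost a call and 7 gained one. Among counts and shares 153 stayed near the main value and 27 moved, by a limit on the ratio for counts and of 1 SD for shares. Depth limits the genes under 10 CPM, of which few UMIs reach the smaller classes.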
